A study of Mus musculus with 11 samples.

Results

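Venous endothelial cells line the veins and venules of the lung. They were picked out of 10x Genomics single-cell RNA libraries, made from digested mouse lung, by the counts of a few genes in each cell. A cell counted as venous if it held at least 1 UMI of Slc6a2 and at least 1 UMI of Vwf. A UMI (unique molecular identifier) stands for 1 captured RNA molecule. The cell also needed at least 1 UMI of Cldn5 or Cdh5 in sum, which mark endothelium in general. At most 1 UMI of the arterial genes Gja5, Gja4 and Bmx and at most 2 UMIs of the aerocyte genes Car4 and Ednrb were allowed, and no UMI of the leukocyte gene Ptprc. The rule found 711 venous cells among 69267 cells that passed quality limits of 1000 to 30000 UMIs and at most 14% mitochondrial UMIs. These 711 cells were 1.03% of all passing cells and 9.67% of the 7355 endothelial cells.

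The lungs came from mice with changes at the p21 gene (Cdkn1a), whose product is an inhibitor of the cell cycle that is switched on by p53 and by short telomeres. Of the 11 libraries, the labels give 1 as wild type (+/+), 3 as p21 heterozygotes (+/-), 5 as +/mTert and 2 as +/mTertCD; they are called WT, p21Het, p21mTert and p21mTertCD here. mTert is the mouse telomerase reverse transcriptase, induced in p21-positive cells according to the study's title, and the labels do not spell out what the CD allele is. In this notation the 3 modified groups share 1 unmodified p21 allele. The study asked whether such telomerase induction acts on the loss of lung capillaries and on emphysema. The mice were 18 months old by their age labels, except 19 months for p21Het_1 and 20 months for p21mTert_1, whose titles give 18 months. The WT, p21Het_1 and p21mTert_1 libraries form the first deposit by their record numbers and the other 8 a later one. The design text says that libraries were sequenced at different times, without saying which. The labels do not state that each library is 1 mouse, so p-values measure the spread between libraries only. With 1 WT library, WT values are given without a test.

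Veins collect blood after the capillaries, and their lining is one place where leukocytes leave the circulation in inflammation. Venous endothelium stores von Willebrand factor, the product of Vwf, together with P-selectin (Selp) in Weibel-Palade bodies, granules that are released within minutes of a stimulus. Its identity is known to depend on the nuclear receptor Nr2f2, which holds Notch signalling down, while Notch ligands and ephrin-B2 mark arteries. Slc6a2 encodes the noradrenaline transporter, and uptake of noradrenaline by lung endothelium is one way in which the lung clears this amine from blood.

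The genes of the rule describe the cells and were not tested. Slc6a2 (chromosome 8, 92960079 to 93001667, plus strand, mm10) had a median of 8 UMIs per venous cell, between 1 and 83. Vwf (chromosome 6, 125546774 to 125686679, plus strand) had a median of 20 UMIs, between 1 and 159. At the lower edge of the rule, 76 members held exactly 1 Slc6a2 UMI. Just outside it, 2024 endothelial cells held Vwf but no Slc6a2, and 22 held Slc6a2 but no Vwf. A further 100 cells met every other term but had 2 or more arterial UMIs, 46 of them exactly 2, and 27 were left out for a single Ptprc UMI. Of the members, 668 had no aerocyte UMI, 33 had 1 and 10 had 2; no cell stood at 3 and 4 stood above.

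Prss23, Vcam1 and Selp stood higher, and Kit and Sema3g lower, the more Slc6a2 UMIs a Vwf-positive cell held. Levels below are CPM, a gene's UMIs per 1000000 UMIs of all genes in the cells summed. Prss23, which encodes a secreted serine protease, stood at 142 CPM in the 2024 cells with Vwf and no Slc6a2. It stood at 710.4 CPM in the 76 members with 1 Slc6a2 UMI, at 1161 in the 161 members with 2 to 4, and at 2088 in the 474 with 5 or more. Vcam1, an adhesion molecule for lymphocytes and monocytes and one of the 3 markers given for these cells, was not used by the rule. It ran through 49.5, 428, 754 and 938 CPM over the same 4 sets. Selp ran through 21.1, 207, 593 and 759 CPM. Genes lower in venous than in both capillary and arterial cells ran the other way: Kit, the stem cell factor receptor, ran through 527, 131, 94 and 18.6 CPM, and Sema3g, a semaphorin, through 452, 72.4, 50.5 and 7.59. A cell with more UMIs in all also holds more Slc6a2 UMIs, so these sets differ in depth as well, and no test was made. The cells with Vwf alone carried levels of Kit and Sema3g above those of general capillary cells (439 and 357 CPM), with little Vcam1 or Selp. The 100 cells left out for arterial UMIs carried the same genes: Vcam1 (1191 CPM against 870.4 in all members), Prss23 (1337 against 1840.2) and Amigo2 (437 against 396).

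**Figure D1:**
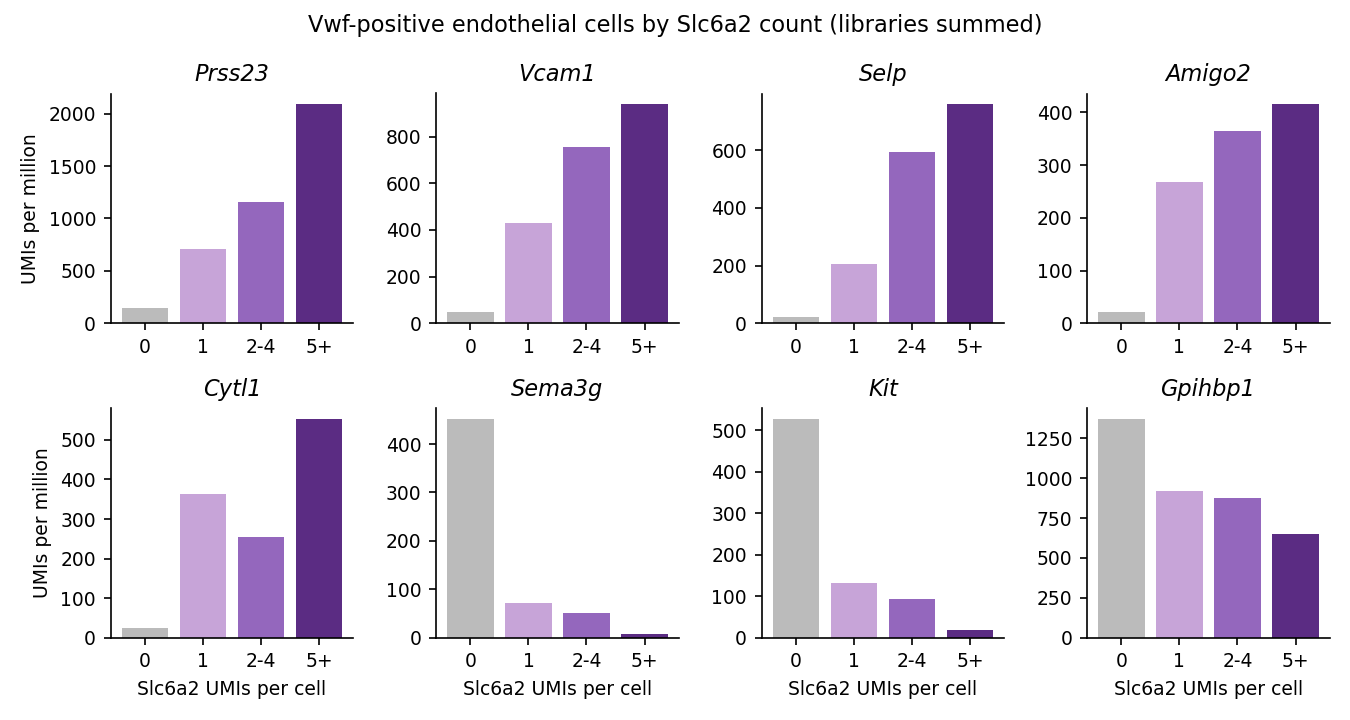
Levels of 8 genes, in CPM on the y axes, in Vwf-positive endothelial cells with 0, 1, 2 to 4 or 5 and more Slc6a2 UMIs (x axes); each bar sums the cells of 11 libraries, so it carries no error. Prss23 stands at 142 without Slc6a2 and at 2088 with 5 or more UMIs, while Kit runs from 527 to 18.6.

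Members came from every library, from 24 in p21mTertCD_1 to 117 in p21Het_2, and their summed depth ran from 149525 to 571520 UMIs per library, within library totals of 42038434 to 85988955 UMIs. Pairs of libraries shared 4 to 20 barcodes, at most 0.322% of the smaller library. The 10 pan-endothelial genes summed to 8319.7, 9675 and 11709 CPM in the lowest, median and highest library, but they include Cldn5 and Cdh5, which the rule used, so the sum is a description only. The 19 genes of the venous list summed to 12715, 14766 and 17491 CPM in the venous cells, with all 19 detected, to 1013, 1349 and 2151 in general capillary cells and to 4635, 5531 and 7599 in arterial cells. This sum includes Slc6a2 and Vwf, which the rule required. Without them the other 17 genes summed to 6637, 7916 and 11392 CPM in venous, 1013, 1349 and 2151 in general capillary and 2849, 4180.4 and 5907 in arterial cells. Single members carried RNA of other lineages: 6 had more than 20 UMIs of Sftpc and Sftpb, the surfactant genes of alveolar type 2 cells, with up to 2360, and 13 had more than 50 haemoglobin UMIs, with up to 6681. Counting also ciliated, lymphocyte, fibroblast and mural genes, 45 members held such RNA. Across libraries the 6 alveolar type 2 markers summed to 365, 685 and 9524 CPM and the 4 haemoglobin genes to 58.2, 742 and 26372 CPM in the lowest, median and highest library; the 6 markers of the cardiac muscle around the pulmonary vein were at 0 in the median library and reached 439 in p21Het_3.

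To see what sets the members apart from their nearest neighbours, they were compared with 1373 general capillary cells and 1157 arterial cells of the same 11 libraries. General capillary cells held Gpihbp1, which anchors lipoprotein lipase to capillary walls, and neither Slc6a2 nor Vwf. Arterial cells held 2 or more UMIs of Gja5, Gja4 and Bmx and no Slc6a2. Both comparisons use the same venous cells, UMIs were summed per library and set of cells, and the test was edgeR's quasi-likelihood test with the library as a block and Benjamini-Hochberg adjustment. Genes of either rule got no test. Log2 differences below are venous minus comparison cells with their standard errors, and where 2 follow each other the first is against general capillary and the second against arterial cells. Differences called higher or lower passed an adjusted p of 0.05. Against general capillary cells 27.6% of 4544 genes passed an adjusted p of 0.05 (14.7% higher and 12.9% lower in venous cells), and against arterial cells 22.2% of 5353 (11.5% higher and 10.7% lower). Venous cells had more UMIs per cell than general capillary cells, with library medians of 3181 to 5983 against 2360 to 3530. Arterial medians ran from 3127 to 5322, above the venous median in some libraries and below it in others.

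Of the venous list, 14 of 15 tested genes were higher than in general capillary cells with a median log2 difference of 3.26, beside -0.02 for all genes, and none was lower. Against arterial cells 14 of 16 were higher and 1 was lower, with a median of 1.93 beside 0.01. The list was written with earlier results of these data known, so its direction is no independent evidence. Selp (chromosome 1, 164115264 to 164150026, plus strand) stood at 277, 809 and 1197 CPM in the lowest, median and highest library of venous cells, at 0, 0 and 34.9 in general capillary cells and at 33.8, 162 and 377 in arterial cells. Every venous library was above every general capillary library. The difference was 7.42 ± 0.31 from general capillary cells (adjusted p = 2.4e-14, higher in 11 of 11 libraries) and 2.39 ± 0.23 from arterial cells (adjusted p = 1.5e-08, higher in 10 of 11). Vcam1 (chromosome 3, 116109949 to 116129688, minus strand) stood at 450.2, 864 and 1530.0 CPM in venous, 0, 7.38 and 19.5 in general capillary and 117, 224 and 432 in arterial cells. For Vcam1 none of the 3 sets of libraries overlapped, whereas Selp overlapped between venous and arterial and between arterial and general capillary libraries. The differences were 6.59 ± 0.18 (adjusted p = 2.0e-17) and 1.96 ± 0.15 (adjusted p = 3.3e-10), each with 11 of 11 libraries higher.

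Several genes were higher in venous cells than in both neighbours. Prss23 (chromosome 7, 89507783 to 89527187, minus strand) had a mean of 1853 ± 419 CPM (SD, n = 11 libraries) in venous cells, 208 ± 92.7 in general capillary and 109 ± 41.8 in arterial cells. Its log2 differences were 3.26 ± 0.15 and 4.17 ± 0.16. Bst1, an ectoenzyme that cleaves NAD and is anchored to the membrane, was at 229 ± 56.3 CPM in venous cells and at 9.38 and 10.5 in the others, with differences of 4.69 ± 0.28 and 4.48 ± 0.21. Ptgs1, the constitutive cyclooxygenase, was at 294 ± 53.2 CPM against 95.6 and 84.4 (differences 1.65 and 1.86). Lrg1, a secreted glycoprotein that modulates TGF-beta signalling in vessels, was 2.03 and 2.21 higher. Amigo2, a transmembrane adhesion protein, and Car8, a carbonic anhydrase-related protein without enzyme activity, were higher by 5.52 and 3.89 than in general capillary cells and by 3.62 and 3.01 than in arterial cells. Dnm3, a dynamin, was at 237 ± 48.5 CPM against 15.3 and 8.11, differences of 4.16 and 4.77.

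Other venous genes were shared with arteries. Cytl1, a secreted cytokine-like protein, was at 505 ± 164 CPM in venous cells, 3.87 ± 8.61 in general capillary cells and 369.6 ± 181 in arterial cells. It stood 7.30 ± 0.28 above general capillary cells and 0.54 ± 0.10 above arterial cells (adjusted p = 1.7e-04), and that second call was lost when arterial cells were restricted to those with Vwf or when the library term was dropped (lowest log2 difference 0.21 over the alternatives, edgeR adjusted p at most 0.16). Cpe, a carboxypeptidase that trims peptide hormones, stood 5.57 ± 0.22 and 0.96 ± 0.26 above them (adjusted p = 0.00692 for the second, lost under 3 alternatives with an adjusted p of at most 0.065). Myof, a membrane-repair protein, stood 4.51 above general capillary cells and 0.38 above arterial cells, the second a call lost without p21mTert_4 and against arterial cells with Vwf (adjusted p at most 0.72). Adgrg6, an adhesion G protein-coupled receptor, was 4.90 above general capillary and -0.52 from arterial cells, hence lower than in arteries. Mgp, the matrix Gla protein that keeps calcium from depositing in vessel walls, was the 1 gene of the venous list lower than in arteries: 140.5, 530.0 and 1873 CPM in the lowest, median and highest venous library, 1365, 2364 and 3468 in arterial and 0, 78.8 and 340.1 in general capillary cells. It was 2.26 ± 0.39 above general capillary and -2.09 ± 0.26 from arterial cells, lower in 10 of 11 libraries.

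Among the genes that set venous fate, Nr2f2 stood at 320.0 ± 58.6 CPM in venous and 65.1 ± 33.8 in arterial cells, a difference of 2.39 ± 0.17 (adjusted p = 4.2e-11). Against general capillary cells (209 ± 163 CPM) it was 0.93 ± 0.20, higher in 8 of 11 libraries. Ephb4, the venous receptor for ephrin-B2, was 0.68 and 0.90 higher. Nrp2, a co-receptor for VEGF-C, was 1.89 ± 0.18 above arterial cells, with 182 CPM in venous and 183 in general capillary cells (log2 difference 0.14, adjusted p = 0.484). The general capillary set held 107 cells with UMIs of lymphatic genes, and without them Nrp2 passed the test there too. Among lymphatic genes, Mmrn1, Prox1 and Maf stood at 865, 146 and 389.7 CPM in general capillary cells and at 1.02, 0.177 and 2.28 in venous cells. Reln had no UMI in any of the 711 venous cells, which allows a share of up to 0.422% of cells with a UMI.

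Most genes of the arterial list were lower. Of that list, 5 of 6 tested genes were lower than in general capillary cells and 6 of 7 lower than in arterial cells. Dll4, a Notch ligand, stood at 1.75, 7.9 and 15.1 CPM in the lowest, median and highest venous library and at 57.3, 115 and 167 in general capillary cells, without overlap, a difference of -3.82 ± 0.19 (adjusted p = 5.2e-13). Efnb2, which encodes ephrin-B2, was -2.47 ± 0.14 and -3.10 ± 0.15 from the 2 neighbours. The Notch target Hey1 was at -1.53 and -1.76, the chemokine Cxcl12 at -1.37 and -2.39, and the transcription factor Sox17 at -1.29 and -1.35. The exception on the list was Fbln5, an elastic-fibre protein, at 1.49 ± 0.19 and 0.49 ± 0.13. The BMP ligands split: Bmp4 was 2.55 above general capillary cells (103 and 17.7 CPM) and at 114 CPM in arterial cells, while Bmp6 was -0.91 and -0.97, lower than in both. In the wider list of venous specification, Notch and BMP genes, 6 of 21 were higher and 6 lower than in general capillary cells, and 4 of 21 were higher and 9 lower than in arterial cells.

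Of 5 tested genes of the general capillary list, 4 were lower than in both neighbours and Plvap was higher. Kit was at 41.2 ± 23.5 CPM in venous and 435 ± 47.4 in general capillary cells (-3.43 ± 0.17), and Lpl, lipoprotein lipase, at 62.2 ± 50.3 and 417 ± 137 (-2.82 ± 0.20). Sema3c and Cd36, a fatty acid translocase, differed less, by -0.86 and -0.30. Plvap, which forms the diaphragms of fenestrae and is known from veins too, was 0.61 ± 0.09 and 0.48 ± 0.08 higher. Beyond the general capillary list, Sparcl1, a gene of the matrix list, was at 0, 3.19 and 20.2 CPM over the venous libraries. Over the general capillary libraries it was at 199.9, 279 and 685 CPM. Sema3g was at 3.89, 12.8 and 55.5 CPM in venous and at 228, 355 and 444 in general capillary libraries. Neither overlapped, with differences of -5.47 ± 0.25 and -4.13 ± 0.21 there and -5.63 ± 0.21 and -4.57 ± 0.19 against arterial cells. Hilpda, a lipid droplet protein induced by hypoxia, was at -3.20 and -3.29, and Igfbp7 at -3.80 and -3.44. Against arterial cells alone the lowest genes also included Pcsk5 (-5.53), a proprotein convertase, Plat (-5.21), tissue plasminogen activator, Fbln2 (-4.53), Ntrk2 (-4.50), Atp13a3 (-3.70), Mgll (-3.37), which breaks down monoglycerides, and Map1b (-3.34).

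**Figure D2:**
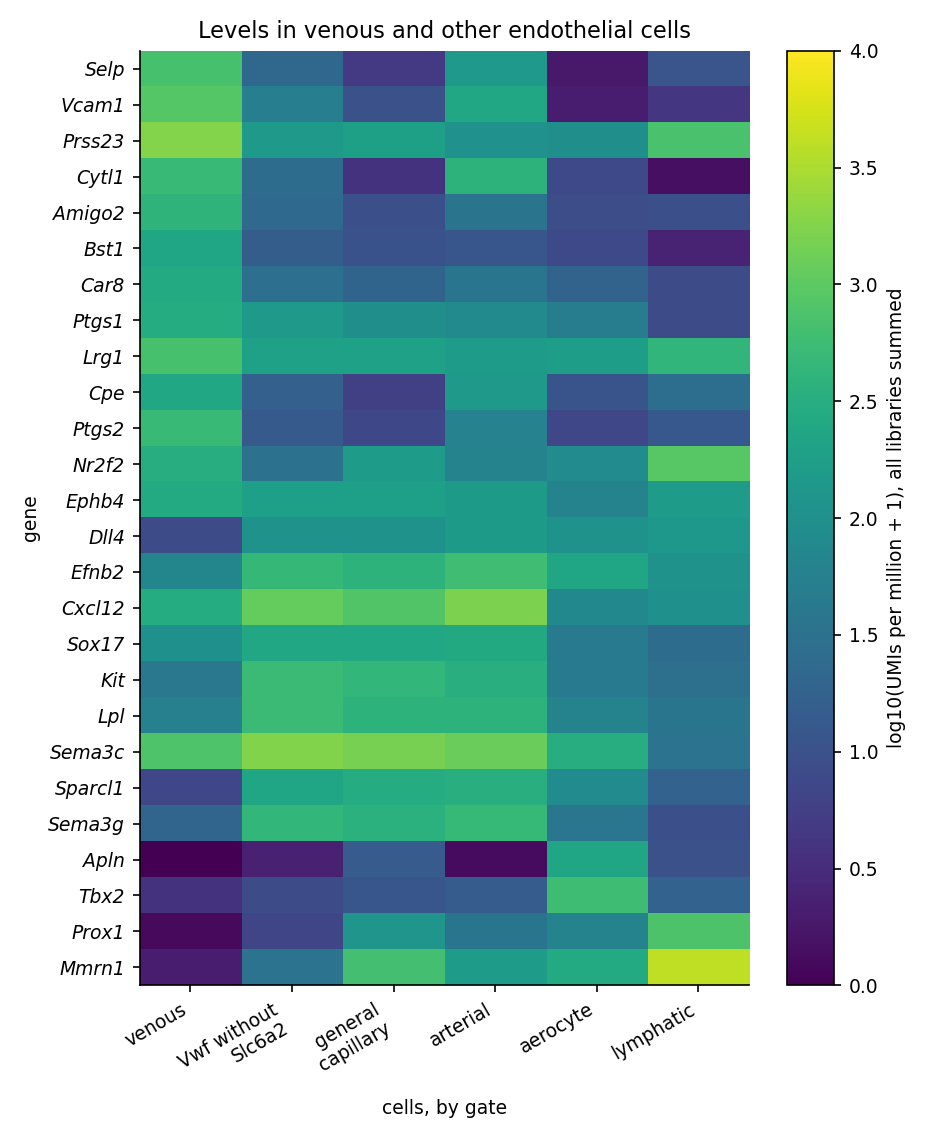
Colour gives log10 of CPM plus 1 for 26 genes (rows) in 6 sets of endothelial cells (columns), each summed over 11 libraries. The venous column is bright for Selp to Nr2f2 and dark for Dll4, Sparcl1 and Sema3g, and Selp runs from 691 CPM in venous cells to 21.1 in cells with Vwf and without Slc6a2 and 3.7 in general capillary cells.

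The genes for leukocyte traffic moved in both directions. Of the leukocyte adhesion list, 4 of 11 tested genes were higher and 4 lower than in general capillary cells (median -0.01), and 4 of 13 higher and 4 lower than in arterial cells (median -0.06). Besides Selp and Vcam1, Icam1, the ligand of leukocyte integrins, was at 933 ± 252 CPM against 165 and 397 (2.52 ± 0.14 and 1.26 ± 0.16). The junctional molecule Jam2 was 1.56 and 0.45 higher, and its relative F11r was -0.47 and -0.59, lower. Ackr1, the chemokine-binding receptor typical of venules, had at least 1 UMI in 54 of 711 venous cells, in 6 of 1157 arterial cells and in 0 of 1373 general capillary cells, which allows a share of up to 0.218%. In B cells, which do not express it, 4 of 13709 cells had a UMI. Ackr1 was thus uneven: 4 members held 50% of its 155 UMIs.

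Of the Weibel-Palade and haemostasis genes, 10 of 16 tested were higher and 4 lower than in general capillary cells (median 0.60), and 7 of 17 higher and 4 lower than in arterial cells (median 0.32). Rab27a, which tethers Weibel-Palade bodies, was at 135 ± 40.3 CPM against 45.1 and 52 (1.64 and 1.44). Thbd, thrombomodulin, was at 1667 ± 239 CPM against 1041 and 1062 (0.74 and 0.71), and Ptgis, prostacyclin synthase, was 3.02 and 2.39 higher. Ptgs2, the inducible cyclooxygenase that acts upstream of it, was at 131, 535 and 1284 CPM in the lowest, median and highest venous library, against 11.5, 22.8 and 181 in arterial cells (3.43 ± 0.25) and a mean of 8.28 in general capillary cells (6.21 ± 0.29). Plat was lower, with 11.2 ± 9.24 CPM in venous, 117 ± 45 in general capillary and 412 ± 123 in arterial cells (-3.35 and -5.21). The vasoconstrictor Edn1 was at -0.44 and -1.28, and Nos3, nitric oxide synthase, was 1.34 above general capillary cells. Without the library term, the calls for Edn1 against general capillary cells and for Fbln5 and Cd74 against arterial cells were lost.

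Among genes for amine handling, Slc6a2 was a rule gene, and the 2 described here were lower than in general capillary cells. Adrb1, an adrenoceptor, was -0.76 ± 0.10 from general capillary cells, lower in 11 of 11 libraries, and -0.24 from arterial cells, not passing the test (adjusted p = 0.104). Maoa, which breaks down noradrenaline after uptake, was at 53.1 ± 17.9 CPM against 99.9 and 91.5, -0.74 and -0.67. The extraneuronal transporters Slc22a3 and Slc29a4 had no UMI in 711 venous cells, which allows a share of up to 0.422% for each.

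Matrix and signalling genes differed in both directions. Bgn, the proteoglycan biglycan, was 4.01 ± 0.20 and 0.97 ± 0.09 higher, and Sparc, a matrix-binding glycoprotein, was -1.89 ± 0.14 and -1.65 ± 0.11, lower. Of the matrix list 6 of 13 were higher and 6 lower than in general capillary cells, and 3 of 15 higher and 11 lower than in arterial cells. Vegfc, the growth factor for lymphatic vessels, was at 317 ± 92.3 CPM against 22.6 and 60.4 (3.82 ± 0.15 and 2.45 ± 0.11). Lyve1, a hyaluronan receptor often used to mark lymphatics, was at 1899.6 ± 387 CPM in venous cells, 899 ± 317 in general capillary and 1288 ± 329 in arterial cells (1.18 and 0.64). Ch25h, which makes 25-hydroxycholesterol, Samd5 and Tmem45a were higher by 4.84, 4.86 and 6.46 than in general capillary cells and by 3.60, 2.69 and 3.18 than in arterial cells. Lbp, lipopolysaccharide-binding protein, was 1.65 and 2.73 higher. Cyp1a1, a target of the aryl hydrocarbon receptor, was 2.52 ± 0.32 and 2.42 ± 0.29 higher, at 54.5, 133 and 605 CPM in the lowest, median and highest venous library and 0, 2.47 and 229 in general capillary cells, which overlapped.

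MHC genes were lower in venous cells. Of 12 genes for antigen presentation, 10 were lower than in general capillary cells and 6 lower than in arterial cells, and none was higher. Cd74, the chaperone of MHC class II, was at 1018 ± 540.4 CPM against 1902 and 1639 (-0.92 ± 0.11 and -0.65 ± 0.10, lower in 11 of 11 libraries in both), and H2-Ab1, an MHC class II chain, was -0.84 and -0.72. Of the dissociation stress list, immediate-early and heat-shock genes that rise when tissue is digested, 12 of 13 were higher than in general capillary cells, with a median of 1.06, while 2 of 14 were higher and 1 lower than in arterial cells. Fos stood at 2432 ± 828 CPM in venous, 1210.2 ± 396 in general capillary and 2421 ± 795 in arterial cells. Ptgs2, Icam1 and Ch25h were higher than in general capillary cells beside this stress difference, whose part in it was not tested. Against arterial cells these 3 genes were higher too. There Fos was at 0.06 (adjusted p = 0.816), Zfp36 and Ier3 of the stress list were higher and Hspa1a was lower. The part of stress was not tested there either. Cdkn1a, the p21 gene itself, was at 446 ± 167 CPM in venous, 405 in general capillary and 478 in arterial cells and passed neither test (log2 differences 0.18 and -0.06).

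Detection per cell showed the same contrasts after every cell had been thinned to 1000 UMIs, so that depth was equal. Prss23 was found in 74.5% of thinned venous cells (94.0% unthinned), in 11.1% of general capillary cells, in 7.09% of arterial cells and in 0.0875% of B cells, taken as the background from free RNA. Vcam1 was found in 28.7% of thinned venous cells (54.1% unthinned), 0.437% of general capillary cells, 8.21% of arterial cells and 0.212% of B cells. Selp was found in 15.2% (28.1% unthinned), 0.291%, 4.84% and 0.153%. B cells had library medians of 3496 to 6391 UMIs per cell before thinning. Most members thus had a Prss23 UMI and a minority a Selp UMI.

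Selp and Ptgs2 were found in a minority of members, in 200 and 196 of 711. Of 2602 Selp UMIs, 50% lay in 18 of the 711 cells, and of 1885 Ptgs2 UMIs in 15 cells, whereas 50% of the Prss23 UMIs were spread over 134 cells. Members were therefore set out by their Selp count, a division chosen after these values were seen and given without a test: 511 cells had 0 Selp UMIs, 86 had 1 or 2, and 114 had 3 or more. Depth rose with it, with medians of 3755, 5193 and 8786 UMIs per cell, so the levels below are CPM. Vcam1 stood at 263, 564 and 2154 CPM, Icam1 at 513, 743 and 1749, and Ptgs2 at 75.5, 278 and 1404. Ch25h, Mgp, Cpe and Lrg1 followed the same order, each with the highest set above the lowest in all 11 libraries. Sele, E-selectin, an adhesion molecule of activated endothelium, stood at 2.81, 9.93 and 185 CPM. Other genes ran downward: Sema3c at 1149, 518 and 231 CPM, Tmem100 at 1453, 757 and 434, and Hpgd, which inactivates prostaglandins, at 3533, 2785 and 1489.7, each lower in 11 of 11 libraries. Cxcl12 and Thbd were lower in 11 of 11 libraries too. Prss23 stood at 1901, 1877 and 1709.5 CPM, higher in 4 libraries and lower in 7. Amigo2 and Lyve1 also went both ways, higher in 3 and 7 libraries. The stress gene Fos moved with Selp, through 1480.3, 1887 and 4803 CPM, and its part in the pattern was not tested. Slc6a2 itself ran through 2253, 2157 and 1867 CPM and Vwf through 4404, 5181 and 4258.

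**Figure D3:**
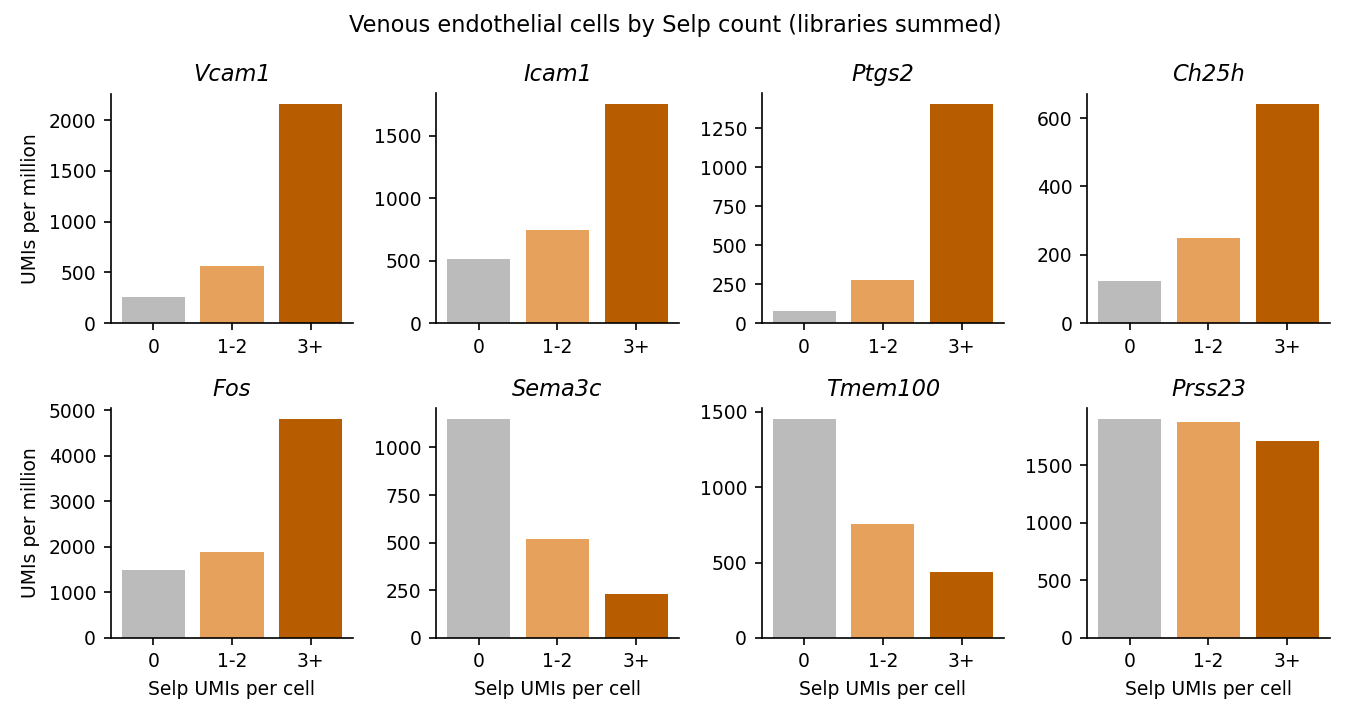
Levels of 8 genes, in CPM on the y axes, in venous endothelial cells with 0, 1 to 2 or 3 and more Selp UMIs (x axes), summed over 11 libraries and so without error bars. Vcam1, Icam1, Ptgs2, Ch25h and Fos are highest in the cells with most Selp, Sema3c and Tmem100 are lowest there, and Prss23 stays between 1709.5 and 1901.

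No difference in the share of venous cells between genotypes exceeded the spread between libraries. Of all passing cells, venous cells made up 0.917%, 1.37% and 0.443% in p21Het_1 to p21Het_3. They made up 1.08%, 1.30%, 1.16%, 1.55% and 0.974% in p21mTert_1 to p21mTert_5, 0.366% and 1.20% in the 2 p21mTertCD libraries, and 0.714% in WT (95% exact binomial interval 0.508% to 0.974%, counting error only). The p21mTert libraries lay inside the range of the p21Het libraries except p21mTert_4, and the 2 p21mTertCD libraries lay far apart. Means were 0.911 ± 0.465% (SD, n = 3), 1.21 ± 0.223% (n = 5) and 0.781 ± 0.588% (n = 2). The difference p21mTert minus p21Het was 0.301 percentage points in an exact 2-sided permutation test (p = 0.268, adjusted p = 0.804 over 6 tests). The difference p21mTert minus p21mTertCD was 0.430 points (exact permutation p = 0.238, adjusted p = 0.804), and p21mTertCD minus p21Het was -0.129 points (exact permutation p = 0.700, adjusted p = 0.900). The smallest p these designs allow is 0.0179, 0.0476 and 0.100. Shares of dissociated cells depend on every other cell type in the count, and fewer venous cells cannot be told apart from poorer release or capture of them.

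Among endothelial cells alone the shares were closer: 9.06 ± 0.565% in p21Het (n = 3), 10.2 ± 2.01% in p21mTert (n = 5), 9.61 ± 4.63% in p21mTertCD (n = 2) and 9.42% in WT (95% exact binomial interval 6.78% to 12.7%). The p21mTert libraries had 13.6%, 9.47%, 8.22%, 9.74% and 9.77%, the p21Het libraries 9.28%, 9.47% and 8.41%, and the p21mTertCD libraries 6.33% and 12.9%. The 3 groups overlapped. Differences were 1.09 points for p21mTert minus p21Het (exact permutation p = 0.464), 0.543 for p21mTert minus p21mTertCD (exact permutation p = 0.857) and 0.551 for p21mTertCD minus p21Het (exact permutation p = 0.900), each with an adjusted p of 0.900.

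**Figure D4:**
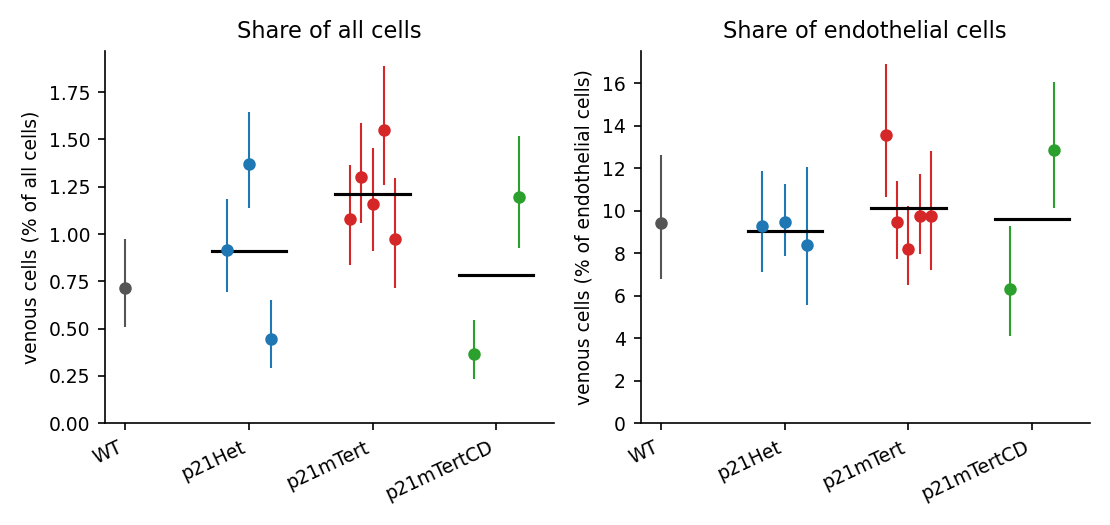
Venous endothelial cells as a percentage of all passing cells (left) and of endothelial cells (right), 1 point per library, by genotype. Vertical bars are 95% exact binomial intervals and horizontal lines are group means; the groups overlap in both panels.

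Gene levels within the venous cells were compared between genotypes in 1 edgeR fit over the 10 libraries other than WT. The fit tested 6285 genes and no gene passed an adjusted p of 0.05, so 0% were called, in any of the 3 contrasts. At an unadjusted p under 0.05 there were 318 genes for p21mTert minus p21Het, 403 for p21mTert minus p21mTertCD and 295 for p21mTertCD minus p21Het, and DESeq2 also called 0 in each. On simulated counts of this design, a 4-fold change was recovered for 96.9% of changed genes in the first contrast and 86.6% in the second. A 2-fold change was recovered for 49.5% and 23.2%. The simulation gave all genes 1 set spread between libraries, which was not estimated from these data, and left out the third contrast. Some genes named below had estimated changes above 4-fold and were not called, so the tests can miss more than these rates say. The values below describe levels that did not pass the test. Cdkn1a levels were 220.3, 633 and 687 CPM (p21Het), 391, 652, 516, 514 and 397 CPM (p21mTert), 341 and 334 CPM (p21mTertCD) and 217 CPM (WT), with overlap between p21Het and both other groups. Every p21mTert library lay above both p21mTertCD libraries, as for 6.81% of all genes, and this difference did not pass the test. Among p21Het libraries the low value is that of p21Het_1, which like WT is of the first deposit. The Cdkn1a log2 difference p21mTert minus p21Het was -0.05 ± 0.29, with an approximate 95% interval of -0.63 to 0.52. Tert UMIs were found in 18 of 711 venous cells (2.53%; 0.844% after thinning), against 0.131% of thinned B cells, and were not tested between genotypes. The libraries held 0, 0 and 1 Tert UMIs in p21Het, 1, 4, 6, 5 and 0 in p21mTert, 3 and 0 in p21mTertCD and 1 in WT, 21 in all, and the groups overlapped.

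p21mTert and p21Het venous cells differed most in 3 genes that were lower in p21mTert and 3 that were higher, chosen by the smallest p among genes of at least 50 CPM whose groups did not overlap. Cd63 (chromosome 10, 128900989 to 128912822, plus strand), a tetraspanin that also resides in Weibel-Palade bodies and brings P-selectin to the cell surface, stood at 182, 111 and 116 CPM in p21Het and 88.6, 37.1, 21.1, 52.5 and 38.9 in p21mTert. It was 73.6 and 52.3 in p21mTertCD and 21.2 in WT. All 5 p21mTert libraries were below all 3 p21Het libraries, and WT was at the level of the lowest p21mTert library. The log2 difference was -1.54 ± 0.27 (adjusted p = 0.121), on 265 UMIs in all, 8 of them in p21mTert_3 and 4 in WT. Its call depended on the setting: Cd63 passed when members with RNA of other lineages were left out, when members needed 2 Slc6a2 UMIs, with a term for the deposit, without the filter on low counts and without p21mTert_1. The lowest adjusted p, 2.0e-07, came from the edgeR fit without the filter, which called 87 genes. Over the other alternatives it ran from 0.00916 (edgeR without p21mTert_1) to 0.45. In the neighbouring cells of the same libraries Cd63 stood at 199 ± 80.4 and 125 ± 55.5 CPM (general capillary, p21Het and p21mTert) and at 109.8 ± 9.16 and 91.6 ± 24.9 (arterial).

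Clu, the secreted chaperone clusterin, stood at 144, 234 and 268 CPM in p21Het and 77.5, 125, 89.6, 119 and 121 in p21mTert, without overlap, and at 47.6 in WT (-0.98 ± 0.23, adjusted p = 0.509). It passed the test in the later deposit alone, without p21Het_1, with a term for the deposit and without the filter (adjusted p from 0.00058 to 1.00 over the alternatives, the lowest from the fit without the filter). Sparc stood at 259, 209 and 162 CPM in p21Het and 111, 66.3, 76.4, 119 and 121 in p21mTert (-1.12 ± 0.22, adjusted p = 0.242). The 3 genes on the other side were Trim35, a ubiquitin ligase (0.71, adjusted p = 0.554), Rusc2 (1.00, adjusted p = 0.701) and Rnase4, a secreted ribonuclease (1.23, adjusted p = 0.712). Groups that do not overlap were found for 1.51% of all genes with p21mTert higher and 1.40% with p21mTert lower, 2.91% in all.

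No venous marker passed the test. Of 17 tested genes of the venous list, 12 had p21mTert below p21Het (median log2 difference -0.20, beside 0.00 for all genes), 2 of them without overlap. Ackr1 stood at 57.5, 109 and 45.4 CPM in p21Het, 29.5, 19.5, 36.9, 8.75 and 11.7 in p21mTert, 100.3 and 37.3 in p21mTertCD and 5.29 in WT. The p21mTert libraries were all below the p21Het libraries (-1.91 ± 0.44, unadjusted p = 4.0e-04 in edgeR, adjusted p = 0.509), on 155 UMIs in all, 57 of them in p21Het_2. A single cell of p21Het_2 held 46 of these 57, so the high Ackr1 level of that library rests mostly on 1 cell. Without that cell p21Het_2 would lie below p21mTert_1 and p21mTert_3, so the lack of overlap for Ackr1, counted above, rests on 1 cell. Selp stood at 450.2, 875 and 1197 CPM in p21Het and 277, 308, 809, 805 and 417 in p21mTert, with overlap, a difference of -0.66 ± 0.34 (adjusted p = 0.976). Vcam1 was at -0.54 ± 0.27 and Icam1 at -0.47 ± 0.18 in the same contrast (adjusted p = 0.976 and 0.957). Prss23 was at 0.25 ± 0.18, on the other side of 0. The matrix list had 12 of 15 genes below 0 (median -0.28), the leukocyte adhesion list 9 of 14 (median -0.10), the haemostasis list 12 of 19 (median -0.03), the p53 target list 7 of 11 (median -0.11) and the stress list 9 of 14 (median -0.03). Others went the other way: 6 of 8 pan-endothelial genes (median 0.10), 4 of 6 flow-responsive genes (median 0.12) and 12 of 20 genes of venous specification, Notch and BMP (median 0.04) were above 0.

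The p21mTertCD venous cells stood above both other groups in most MHC and interferon-induced genes, none of which passed the test. All 12 MHC genes were above p21Het (median log2 difference 0.70, beside -0.01 for all genes) and above p21mTert (p21mTert minus p21mTertCD median -0.52). In each contrast 8 of the 12 had groups that did not overlap, where 6.81% of all genes lay higher without overlap in p21mTertCD than in p21Het and 5.01% lay lower in p21mTert than in p21mTertCD. Groups were apart in either direction for 17.6% and 11.8% of all genes in these contrasts, with 2 p21mTertCD libraries that both contrasts share. Cd74 stood at 2140.1 and 1715 CPM in p21mTertCD, 639, 1534 and 641 in p21Het, 838, 447, 1035, 839.9 and 763 in p21mTert and 609 in WT. Both p21mTertCD libraries were above all others, p21Het_2 being the nearest (1.04 ± 0.37 against p21Het, adjusted p = 0.878). Ciita, the activator of MHC class II genes, stood at 86.9 and 62.2 CPM in p21mTertCD, 28.7, 11.5 and 5.05 in p21Het and 18.5, 5.85, 15.8, 26.2 and 23.4 in p21mTert (2.20 ± 0.52 and -2.02 ± 0.45, adjusted p = 0.697 and 0.333), on 92 UMIs in all. B2m, the light chain of MHC class I, stood at 2769 and 2439.5 CPM in p21mTertCD, 1312, 1758 and 1570.4 in p21Het and 1782, 1965, 1720.4, 1940.4 and 2006 in p21mTert (0.80 ± 0.19 against p21Het, adjusted p = 0.697).

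Of the interferon list 17 of 17 tested genes were above p21Het in p21mTertCD (median 0.59), 8 without overlap, and 17 of 17 above p21mTert (median of p21mTert minus p21mTertCD -0.48), 3 without overlap. Irgm2, a GTPase induced by interferon-gamma that is not on this list, stood at 134 and 157 CPM in p21mTertCD, 35.1, 55.7 and 20.2 in p21Het, 48, 76.1, 79, 92.7 and 62.3 in p21mTert and 63.5 in WT. Both p21mTertCD libraries were above all others, p21Het and p21mTert overlapped, and the difference p21mTertCD minus p21Het was 1.85 ± 0.35 (adjusted p = 0.279). Iigp1 and Igtp, of the same family and on the list, were at 1.31 ± 0.33 and 1.57 ± 0.39 (adjusted p = 0.697 for both). For p21mTert minus p21Het the medians were 0.07 for MHC (7 of 12 above 0) and 0.10 for interferon genes (12 of 17 above 0). Without p21mTertCD_1 the MHC median over p21Het was 0.51 in place of 0.70 and the interferon median 0.37 in place of 0.59. Without p21mTertCD_2 they were 0.89 and 0.89, and without p21Het_1 the interferon median was 1.04, while without p21Het_2 Cd74 and Irgm2 passed the test. The fit without p21mTertCD_2 leaves p21mTertCD_1 as the 1 library of that group. In it 1 member held 112 UMIs of ciliated genes among 20643 UMIs. Ciliated genes such as Tppp3 were called there beside Gbp7 and Gbp4. With 1 p21mTertCD library left, the calls of that fit are not read as differences between genotypes.

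The means of these genes were also highest in p21mTertCD in neighbouring endothelial cells of the same libraries. In general capillary cells Cd74 stood at 2706 ± 770.2 CPM in p21mTertCD (SD, n = 2), 1654 ± 883 in p21Het (n = 3) and 1731 ± 339 in p21mTert (n = 5). In arterial cells it stood at 2814 ± 1283, 1495 ± 791 and 1336 ± 284. Its libraries overlapped in both sets. In general capillary cells p21mTertCD_1 and p21mTertCD_2 stood at 3251 and 2161 CPM, with p21Het_2 at 2615. In arterial cells they stood at 3721 and 1907 CPM, with p21Het_2 at 2199. Irgm2 stood at 105 ± 44, 43.5 ± 11.5 and 34.9 ± 13.8 CPM in general capillary cells and at 139 ± 82.6, 50.1 ± 21.4 and 49.6 ± 14.1 in arterial cells. Its p21mTertCD libraries were above all others in both sets, p21mTertCD_1 at 136 and 197 CPM and p21mTertCD_2 at 73.8 and 80.2. Whether the genotype levels differed between venous and neighbouring cells was not tested. In venous cells 6 of the 7 leukocyte markers had a UMI. Their sums were 247 to 254 CPM in p21mTertCD, 394 to 720 in p21Het and 244 to 2672 in p21mTert. The remaining marker, Ptprc, was excluded by the rule. Most UMIs of the sum were of Lyz2, with 1956 over all libraries and 664 in p21mTert_1, against 212 over all libraries for S100a9. The sum therefore cannot show whether leukocyte RNA differed between genotypes, and its part in the MHC levels was not tested.

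Other genes with the smallest p in the contrasts of p21mTertCD had varied functions. Scn7a, a sodium channel, stood at 46.8 and 7.47 CPM in p21mTertCD, 83, 80.6 and 60.6 in p21Het, 51.7, 139, 89.6, 124 and 113 in p21mTert and 0 in WT (2.46 ± 0.54 for p21mTert minus p21mTertCD, adjusted p = 0.333). Mgp stood at 1873 and 617 CPM in p21mTertCD, 530.0, 791 and 985 in p21Het and 185, 140.5, 516, 257 and 339 in p21mTert (-2.16 ± 0.41, adjusted p = 0.297), so all 5 p21mTert libraries were below the other 5. Pam, which amidates peptides, and Scd2, a fatty acid desaturase, were at 0.88 and 1.64 in that contrast, and H2-DMa, which loads peptides on MHC class II, at -1.33 (adjusted p = 0.403, 0.403 and 0.297). Dennd4a and the nuclear RNA Neat1 were at -1.33 and -0.64 for p21mTertCD minus p21Het (adjusted p = 0.874 for both). Genes of other lineages differed in group means as well, though none passed the test. The alveolar type 2 markers summed to means of 1313, 5131 and 610.4 CPM in p21Het, p21mTert and p21mTertCD venous cells, and the haemoglobin genes to 3064, 9068 and 427. Libraries of p21Het and p21mTert overlapped, from 374 to 3000 and 685 to 9524 CPM for alveolar type 2 markers. For haemoglobin genes they ran from 89.4 to 5741 and 273 to 26372 CPM. The part of such RNA in the other differences was not tested gene by gene; with the 45 members holding it left out, the MHC medians were 0.78 (p21mTertCD minus p21Het) and -0.62 (p21mTert minus p21mTertCD).

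**Figure D5:**
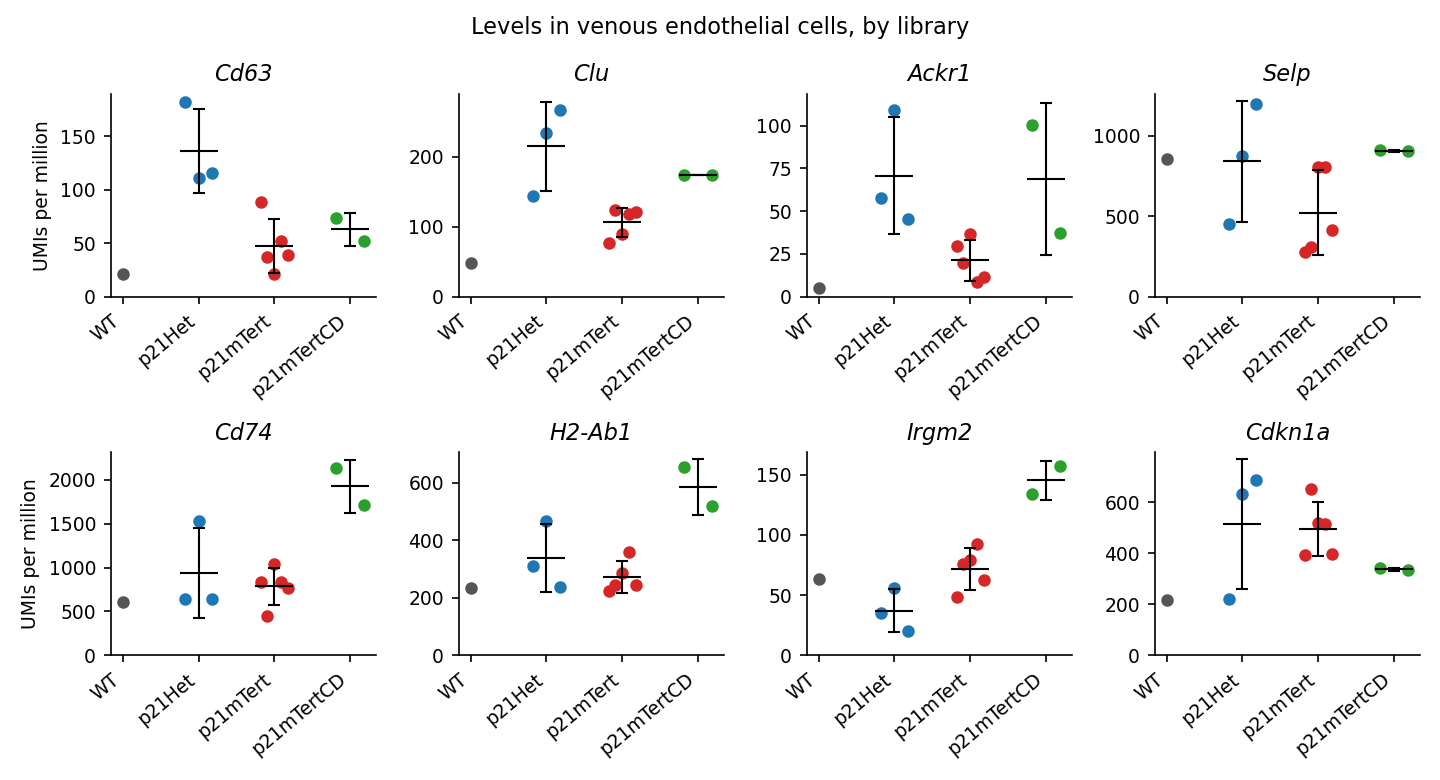
Levels of 8 genes in venous endothelial cells, in CPM on the y axes, 1 point per library by genotype, with the group mean and SD as a dash and bars (none for WT, with 1 library). Cd63, Clu and Ackr1 lie lower in all p21mTert than in all p21Het libraries. For Ackr1, 1 cell holds 46 of the 57 UMIs of p21Het_2, and without that cell the groups would overlap. Cd74, H2-Ab1 and Irgm2 are highest in p21mTertCD, and Selp and Cdkn1a overlap between p21Het and p21mTert. None of the 8 genes passed the test.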

How the data were processed

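Dissociated mouse lung was profiled with the 10x Genomics V2 kit, and the authors ran Cell Ranger against mm10, per the labels' protocols. The deposited matrices hold whole-number UMI counts per gene and barcode for 31053 genes, with barcodes below the authors' stated limits still in them, so those limits (1000 to 30000 UMIs, at most 14% mitochondrial UMIs) were applied here. No version of Cell Ranger is given because the sources differ. Venous cells, and sets of general capillary, arterial, aerocyte and lymphatic cells, were taken by UMI rules rather than by clustering. No doublet caller was run; settings without members that held RNA of other lineages stand in for it.

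Counts were summed per library and set. Genes were filtered with filterByExpr and tested with edgeR 4.0.16 (TMM, quasi-likelihood, R 4.3.3); DESeq2 1.42.0 was an alternative. Standard errors are the log2 difference divided by the root of F. Shares were tested by exact permutation with scipy 1.17.1. The edgeR steps were tested on simulated data. Gene positions come from GENCODE on the mm10 assembly. Alternatives covered normalization, filters, depth, the venous rule, comparison cells, deposit and each library left out. The genes named are the rule genes, listed genes, Cdkn1a, Tert, up to 12 called genes per direction between cell sets (at least 100 CPM, same direction in every library) and, where none was called between genotypes, 3 per direction (at least 50 CPM, no overlap). Members and lists were chosen with earlier results of these data known. A listed gene is not reported here.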

Additional observations from a re-analysis of the deposited data

Results flagged for a closer look

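The venous share of endothelial cells in p21mTert_1 was 13.6%, against 8.22% to 9.77% in the other 4 p21mTert libraries. Its gap to the nearest library was 0.711 of the group's range, just past Dixon's limit of 0.710 for 5 samples. It is the 1 p21mTert library of the first deposit, and 67 of its 494 endothelial cells were venous. Of 32 group values examined in this way 1 stood apart, and chance flags about 1 in 20 groups.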

How the results depend on the processing

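The 3 genotype contrasts had 0 genes called with normalization by size factors, DESeq2 and the planned stricter venous rule (706 members). A minimum of 20 venous cells left out no library and so tested nothing. Without the filter on low counts 87, 135 and 65 genes were called for p21mTert against p21Het, p21mTert against p21mTertCD and p21mTertCD against p21Het. For p21mTert minus p21Het, 2 were called with a term for the deposit (Cd63 and Clu), 1 with the later deposit alone (Clu), and 1 (Cd63) without members of other lineages, also when ciliated and red cells were counted, or with Slc6a2 at 2 or more; the settings with ciliated and red cells and with Slc6a2 were chosen after seeing the data. Leaving out 1 library gave 0 to 1, 0 to 47 and 0 to 24 genes in the 3 contrasts; the 47 and 24 came without p21mTertCD_2, when the remaining p21mTertCD library is assumed to vary like the others, and the 47 included ciliated cell genes such as Foxj1 and Dnah5 and the interferon-induced Gbp4 and Gbp7, and the 24 included Gbp7. Without p21Het_1 Clu and without p21mTert_1 Cd63 was called for p21mTert minus p21Het, and without p21Het_2 Cd74 and Irgm2 for p21mTertCD minus p21Het. Mgp was called for p21mTert minus p21mTertCD without p21mTert_3.

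Between cell sets 2242 and 1858 genes were called without the filter and 396 and 312 with cells thinned to 1000 UMIs, when fewer genes could be tested, for general capillary and arterial cells; leaving out 1 library gave 1136 to 1313 and 1037 to 1217. Of 96 named genes per comparison, 91 and 85 kept direction and call under all alternatives; between genotypes 23, 13 and 20 of 30 did. Hpgd was -0.0378 against capillary cells with Vwf and above 0 under the others.

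The p21mTertCD minus p21Het share of cells turned to 0.0194 points without cells of other lineages and 0.112 with ciliated and red cells also left out, settings that also remove alveolar type 2 cells and lymphocytes from the denominator. The p21mTert minus p21mTertCD share of endothelial cells turned to -0.310 in the later deposit alone, which equals leaving out p21mTert_1. Leaving out 1 library gave, for the shares of cells, 0.0672 to 0.532 (p21mTert minus p21Het), 0.0150 to 0.846 (p21mTert minus p21mTertCD) and -0.545 to 0.286 (p21mTertCD minus p21Het), and for the shares of endothelial cells 0.242 to 1.58, -2.73 to 3.82 and -2.72 to 3.83. The value of 0.532 came without p21Het_2, with an exact permutation p of 0.0476 before adjustment.

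With the replicate number as a block, 0 genes were called in each genotype contrast and the share differences were 0.268, 0.408 and -0.363 points of cells and 1.36, 1.91 and 0.230 points of endothelial cells. The labels do not say that equal numbers mark a shared animal or batch, and same-numbered p21Het and p21mTert libraries correlated at 0.50, 0.19 and 0.04 in their deviations, those with p21mTertCD below 0, so the numbers were not taken to pair libraries.

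With 24 to 117 venous cells per library, the genotype contrasts can miss 2-fold and larger changes.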
